A study of Mus musculus with 18 samples.

Results

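Matrix metalloproteinases are secreted or membrane-bound zinc enzymes that cut collagens, laminins, elastin and other proteins of the extracellular matrix, and the tissue inhibitors of metalloproteinases (TIMPs) bind their active sites and block them. In white fat the matrix around adipocytes is remodelled as the cells enlarge or shrink and as macrophages enter the tissue. The balance of these enzymes and inhibitors is one of the ways in which that remodelling is controlled. The 9 genes described here were chosen by name as 5 metalloproteinases (Mmp2, Mmp3, Mmp12, Mmp14 and Mmp19) and the 4 inhibitors (Timp1 to Timp4). They were picked with earlier results of these data known. All 9 were found by symbol among 24091 gene symbols measured in epididymal fat and 51826 gene identifiers measured in inguinal fat. All 9 also passed the filters on low values in both tables, with 10 reads for the lowest value (Mmp3) and 37536 reads for the highest (Timp3) in epididymal fat.

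RNA sequencing covered 18 libraries of C57BL/6 mice, 3 in each of 6 groups. Mice on the shiftwork schedule spent 4 days of every week under the regular cycle of 12 h light and 12 h dark and the remaining 3 days under the inverted cycle, while control mice stayed on the regular cycle. Both schedules ran for 24 weeks. Epididymal white adipose tissue (eWAT, a visceral depot) was taken from shiftwork and control mice at ZT12 and from shiftwork and control mice at ZT3. Inguinal white adipose tissue (iWAT, a subcutaneous depot) was taken from shiftwork and control mice at ZT3. ZT counts hours from lights-on in the regular cycle, so ZT12 is the time of lights-off. The labels state neither the age of the mice nor whether each library is a separate animal, so the p-values measure the spread between libraries, which may be technical in part.

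The eWAT libraries held 20352008 to 72276733 assigned reads, with ZT3 control replicate 1 far above the next (22513786), and the iWAT libraries held 28544338 to 55639501. All 8 adipocyte markers were above 1 CPM (counts scaled to library size) in all 18 libraries. Several libraries also carried transcripts of other tissues. In eWAT, 10 vas deferens and epididymis markers summed to 13100 and 12500 CPM in ZT3 control replicates 1 and 3, against 53.2 CPM or less in the other eWAT libraries. The sum of 8 spermatid markers was 4690 CPM in ZT3 shiftwork replicate 3 and at most 67.3 CPM in the other eWAT libraries. In addition, ZT12 shiftwork replicate 2 had 8 intestine markers at 466 CPM in sum (7 above 1 CPM), against 8.20 to 117 CPM in the other eWAT libraries. Several results on eWAT are also given without the 3 libraries with vas deferens or spermatid transcripts, which leaves a single ZT3 control library whose variation is borrowed from the rest of the fit. In iWAT, 7 skeletal muscle markers summed to 157 to 53500 CPM in shiftwork libraries, against 57.9 to 127 CPM in controls, and 8 lymphocyte markers to 4.54 to 41.9 CPM, against 15.3 to 1600 CPM in controls. In such bulk samples, fewer cells of a type and less RNA per cell cannot be told apart.

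Levels are given per transcript length, as FPKM in eWAT and RPKM in iWAT. In eWAT the inhibitors Timp3, Timp4 and Timp2 were the most abundant of the 9 genes, with medians of 103, 94.6 and 93.0 FPKM over 12 libraries, and the order among them varied by library. Timp3 was above Timp4 in 9 of 12 libraries and Timp4 above Timp2 in 6 of 12. Every library had all these 3 inhibitors above Mmp19, which came next with a median of 23.3 FPKM. Mmp14 and Mmp2, each with a median of 15.5 FPKM, did not separate, and Mmp14 was the higher in 4 of 12 libraries. Mmp12 (median 6.40 FPKM) was above Timp1 (3.97 FPKM) in 10 of 12 libraries, and Mmp3 (1.28 FPKM) was the lowest of the 9 in the order of medians.

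In iWAT the order by RPKM was different. The places of Timp3 and Timp4 in it also reflect gene lengths 1.55 and 2.90 times those behind their eWAT FPKM. Timp2 led with a median of 177 RPKM over 6 libraries and was above Mmp2 (77.5 RPKM) in 6 of 6. Mmp2 and Timp3 (65.3 RPKM) did not separate, with 3 of 6 libraries each way. Mmp14 (33.5 RPKM), Timp4 (30.5 RPKM), Mmp3 (28.9 RPKM) and Mmp19 (24.1 RPKM) lay close together and overlapped in range. Mmp12 (5.75 RPKM) and Timp1 (4.14 RPKM) were lowest, again with 3 of 6 libraries each way.

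**Figure D1:**
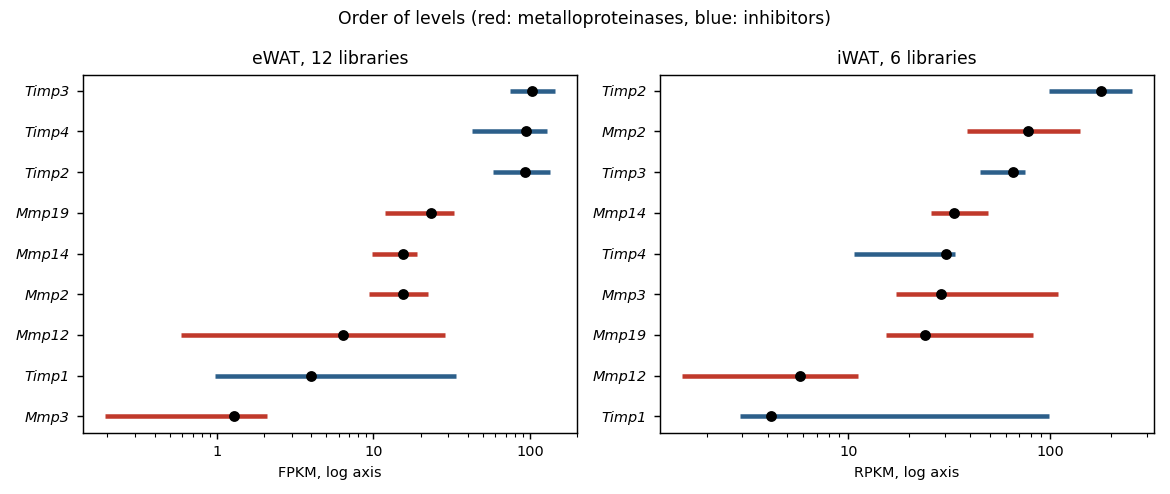
Order of levels of the 9 genes in eWAT (left, FPKM, 12 libraries) and iWAT (right, RPKM, 6 libraries), on log axes. Points are medians and bars run from the lowest to the highest library, red for metalloproteinases and blue for inhibitors. Timp3, Timp4 and Timp2 stand above the other 6 genes in eWAT by their medians, and in iWAT Timp2 is highest and Mmp12 and Timp1 are lowest. The gene lengths behind the iWAT values of Timp3 and Timp4 are larger than those behind their eWAT values, which lowers both in iWAT.

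The stromelysin Mmp3 had the widest gap between the depots. Its libraries lay between 0.193 and 2.09 FPKM in eWAT, while those of iWAT lay between 17.2 and 109 RPKM, or, scaled to depth alone, 0.463 to 5.11 CPM in eWAT, while iWAT had 30.7 to 195 CPM. The ranges of the gelatinase Mmp2 were also apart, at 38.7 to 92.1 CPM for eWAT libraries and 130 to 469 CPM for the iWAT ones, as were those of Mmp14, at 50 to 98.3 CPM and 110 to 211 CPM. The 2 tables were normalized separately and the depots were not tested against each other. Gene lengths also differ between them. The length behind the iWAT RPKM of Timp4 was 2.90 times that behind its eWAT FPKM, and that of Timp3 was 1.55 times as large, while the other 7 genes had ratios between 0.875 and 1.01. The lower places of Timp4 and Timp3 in iWAT go with these lengths. In CPM the eWAT range of Timp4, 104 to 310, overlaps its iWAT range, 63.3 to 198. That of Timp3, 467 to 901 CPM in eWAT, overlaps 365 to 608 CPM in iWAT.

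Promoters were read from RefSeq sequence of build GRCm38.p6, which held 8 start windows for 7 of the 9 genes. Over the 250 bases before the start, the AP-1 motif (TGANTCA, a palindrome and so the same on both strands) was found for 2 of these genes, Mmp3 and the downstream start of Mmp12, and in 6.75% of 32851 promoters. The E-box bound by clock factors (CACGTG, also a palindrome) was found for 0 of the 7 genes and in 6.02% of all promoters. Mmp3 and Mmp12 are the low and variable enzymes of the set in eWAT and neighbours on chromosome 9, 76.3 kb apart. The 2 windows shown are those of the 8 that hold the AP-1 motif. Each gives the 100 bases before the start on the plus strand, 5′ to 3′, with the AP-1 motif in capitals. The Mmp3 window is chr9:7445722-7445821 and the Mmp12 window is chr9:7347274-7347373.
Mmp3: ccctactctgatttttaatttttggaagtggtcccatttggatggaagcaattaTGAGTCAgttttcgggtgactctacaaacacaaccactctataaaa
Mmp12: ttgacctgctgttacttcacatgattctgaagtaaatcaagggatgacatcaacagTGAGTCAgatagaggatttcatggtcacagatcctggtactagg
The motif begins at position -46 for Mmp3 and -44 for Mmp12, counted back from the start. A match describes these letters and is not a site of binding.

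**Figure D2:**
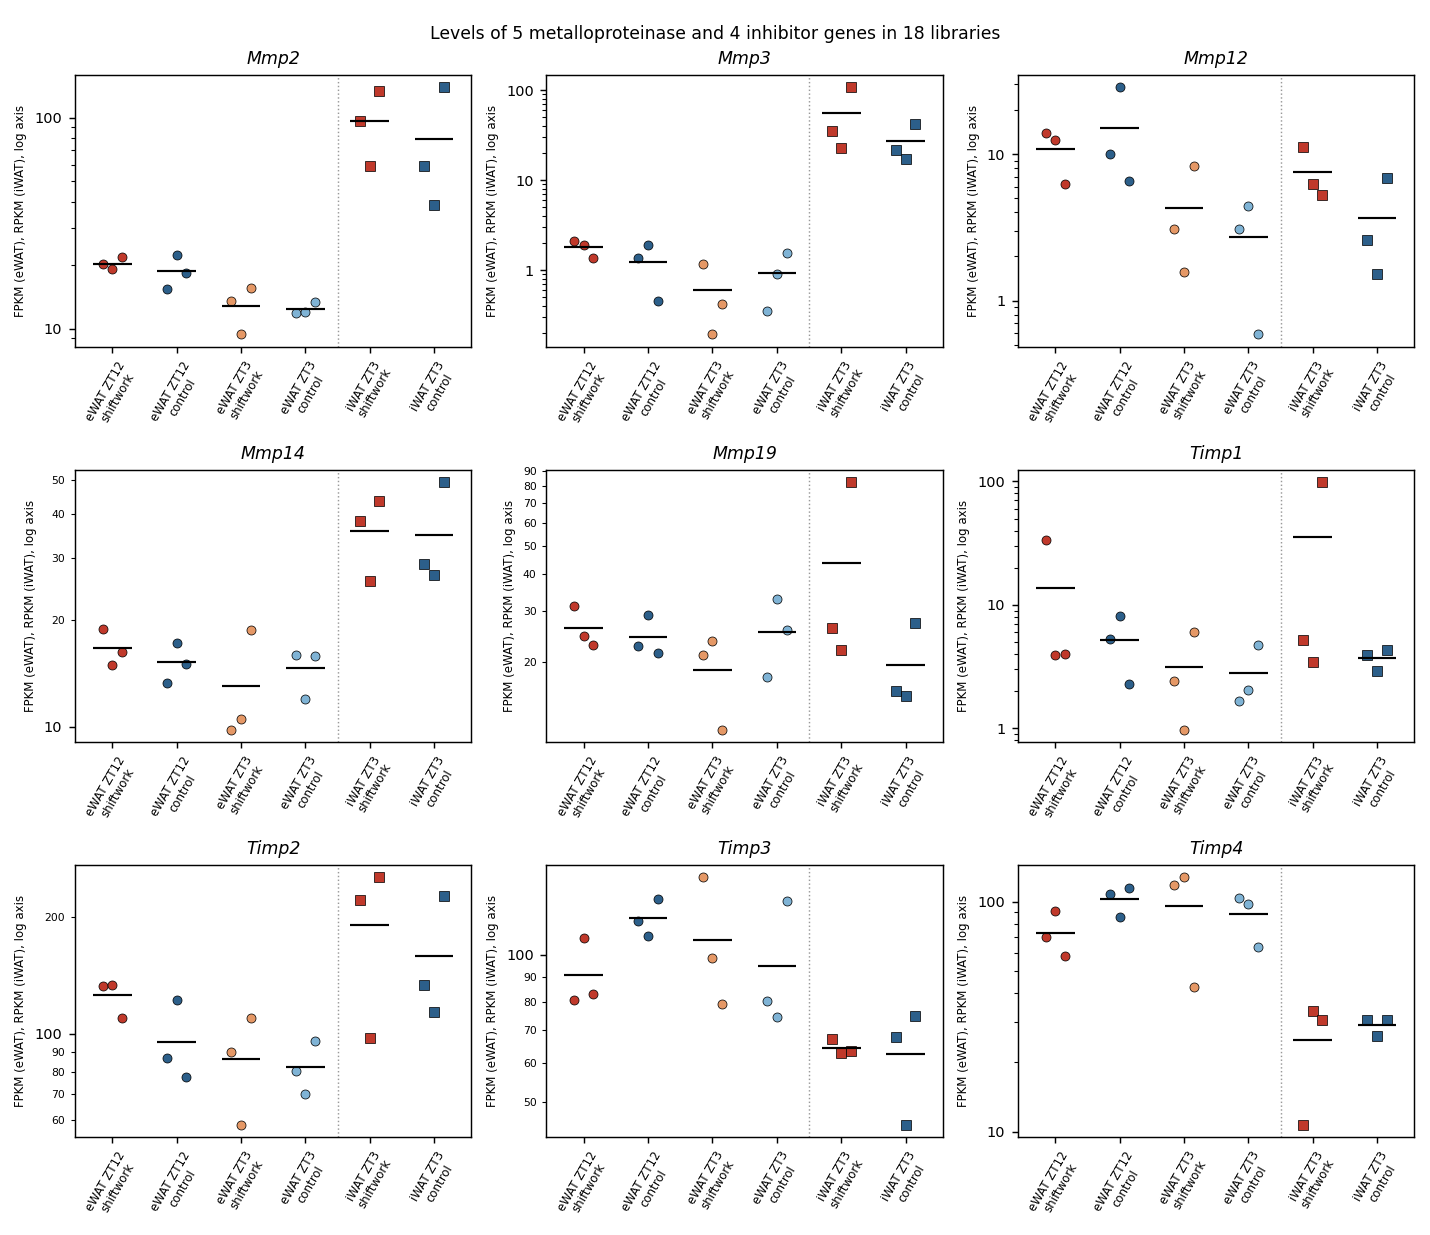
Level of each gene in each library (points) with the group mean (bar), in FPKM for the 4 eWAT groups and RPKM for the 2 iWAT groups right of the dotted line, on log axes with a separate scale per gene. Mmp2 and Mmp12 have higher means at ZT12 than at ZT3 under both schedules, and 1 library in each depot stands above all others for Timp1 (33.5 FPKM and 98.6 RPKM).

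The question put to eWAT at ZT12 and ZT3 is how these genes differ with time of day. Mmp2, which cuts denatured collagen and basement membrane collagen, rose at ZT12 when both schedules were combined. Its levels were 20.2, 19.1 and 21.8 FPKM in ZT12 shiftwork libraries and 15.5, 22.4 and 18.4 FPKM in ZT12 control libraries, against 13.6, 9.41 and 15.6 FPKM in ZT3 shiftwork libraries and 11.9, 12.0 and 13.4 FPKM in ZT3 control libraries. The highest ZT3 library and the lowest ZT12 library meet on this scale, at 15.6 and 15.5 FPKM. On TMM-scaled CPM (counts scaled between libraries by the method of trimmed means) all 6 ZT12 libraries, at 65.3 to 93.8, were above all 6 ZT3 libraries, at 40.6 to 58.8.

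The log2 fold change of Mmp2 over both schedules was 0.65 ± 0.12 (SE, 6 libraries per time, adjusted p = 0.0206, edgeR quasi-likelihood test with Benjamini-Hochberg adjustment over 15141 genes). It was the 1 gene of the 9 called, where a called gene has an adjusted p under 0.05, against 4.94% of all genes tested, or 4.09% counting only those higher at ZT12. At an unadjusted p under 0.05 there were 4 of the 9 (Mmp2, Mmp12, Timp1 and Timp2), against 25.5% of all genes. DESeq2 called it with an adjusted p of 0.000153. This comparison over both schedules was added after the 2 single-schedule comparisons had been seen. The call was lost, with adjusted p between 0.0505 and 0.0587 in edgeR, when any of 5 single libraries was left out, namely ZT12 shiftwork replicate 2 or 3, ZT12 control replicate 2, or ZT3 control replicate 1 or 3. Without the 3 libraries with vas deferens or spermatid transcripts the log2 fold change was 0.62 ± 0.16 (adjusted p = 0.0440).

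Within each schedule the Mmp2 difference was of like size and was not called by edgeR. It was 0.68 ± 0.17 under shiftwork (adjusted p = 0.280, edgeR, n = 3 per group) and 0.61 ± 0.17 in controls (adjusted p = 0.0769). DESeq2 called both, with adjusted p = 0.0408 under shiftwork and 0.0205 in controls. The interaction of schedule and time, which tests whether these differences are unequal, was 0.07 ± 0.25 (adjusted p = 0.939, edgeR).

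Mmp12, the elastase made mainly by macrophages, had the largest estimated time difference of the 9 over both schedules and a wide spread. It stood at 13.9, 12.5 and 6.26 FPKM in ZT12 shiftwork libraries and 9.96, 28.7 and 6.53 FPKM in ZT12 control libraries. At ZT3 it was at 3.06, 1.56 and 8.24 FPKM in shiftwork libraries and 3.10, 4.43 and 0.588 FPKM in control libraries. The highest ZT3 library was replicate 3 of shiftwork, the one with spermatid transcripts. Over both schedules the log2 fold change was 1.93 ± 0.58 and was not called by edgeR (adjusted p = 0.0830), while DESeq2 called it (adjusted p = 0.00561). Leaving out ZT3 shiftwork replicate 3 gave 2.29 ± 0.58 (adjusted p = 0.0358, edgeR), leaving out ZT12 control replicate 2 gave 1.5 ± 0.55 (adjusted p = 0.198), and leaving out all 3 libraries with vas deferens or spermatid transcripts gave 1.88 ± 0.58 (adjusted p = 0.0781). Within controls it was 2.47 ± 0.83 (adjusted p = 0.116, edgeR; 0.0145, DESeq2), and under shiftwork it was 1.40 ± 0.81 (adjusted p = 0.409, edgeR). Single libraries moved both values. The control difference was 1.60 ± 0.81 (adjusted p = 0.348) without ZT12 control replicate 2, the library at 28.7 FPKM, and 3.08 ± 0.98 (adjusted p = 0.0905) without ZT3 control replicate 2. The shiftwork difference was 2.16 ± 0.87 (adjusted p = 0.257) without ZT3 shiftwork replicate 3. Without the 3 libraries it was 2.14 ± 0.70 under shiftwork and 1.62 ± 0.90 in controls.

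Macrophage markers moved with time in the same libraries. The summed level of 10 macrophage markers was 1380 to 2890 CPM in ZT12 shiftwork and 1170 to 2150 CPM in ZT12 control libraries, against 613 to 1050 CPM in ZT3 shiftwork and 670 to 782 CPM in ZT3 control libraries. All 10 markers were above 1 CPM in every library and none was at 0. Other cell types differed by time as well. In controls 8 lymphocyte markers summed to 7.93 to 14.3 CPM at ZT12, against 32.2 to 54.9 CPM at ZT3, and 6 mast cell markers to 39.7 to 49.7 CPM at ZT12, against 51 to 89.2 CPM at ZT3. Under shiftwork both sums overlapped between the times. Across the 12 eWAT libraries, logCPM of Mmp12 went with the marker sum at r = 0.85, Mmp2 at r = 0.83, Timp1 at r = 0.83 and Timp2 at r = 0.77. The other 5 genes went with it at r = 0.65 for Mmp3, 0.55 for Mmp14, 0.23 for Mmp19, -0.03 for Timp3 and -0.18 for Timp4. Without the 3 libraries named above the values over the other 9 were 0.88, 0.80, 0.94 and 0.83 for the first 4 genes, and 0.78, 0.79, 0.13, -0.15 and -0.66 for the other 5 in the same order. Over these 9 libraries Timp2 went with the mast cell sum at r = 0.85 and Mmp3 at r = 0.81 (0.38 and 0.13 over all 12). Sums of other cell types went with or against these genes too. The sum of 9 mesothelium markers was at r = 0.85 for Timp1 and 0.82 for Mmp3 over the 9 (0.54 and 0.32 over all 12). ZT12 shiftwork replicate 1 had Timp1 at 33.5 FPKM, against at most 8.12 FPKM in the other eWAT libraries. It also had the highest macrophage sum, 2890 CPM, and the highest mesothelium sum, 449 CPM. This library is in both sets, so the r values of Timp1 lean on it, and none is given without it. The adipocyte sum was at r = -0.83 for Mmp3, -0.76 for Timp1, -0.74 for Timp2 and -0.69 for Mmp12 over the 9 (0.10, -0.24, -0.18 and 0.18 over all 12). The sum of 10 fibroblast and adipose progenitor markers was at r = -0.79 for Mmp12, -0.67 for Mmp3 and -0.61 for Timp1 over the 9. Over all 12 these were -0.07, -0.20 and -0.45. The remaining genes lay between -0.60 (Mmp14) and 0.42 (Timp3) over the 9. Over all 12 they lay between -0.59 (Mmp14) and 0.75 (Timp4). Mmp19 went against the endothelium sum at r = -0.91 over the 9 (0.21 over all 12). These correlations describe libraries that share their groups, their scaling and their tissue makeup, and the part of these cell types in the time differences was not tested.

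**Figure D3:**
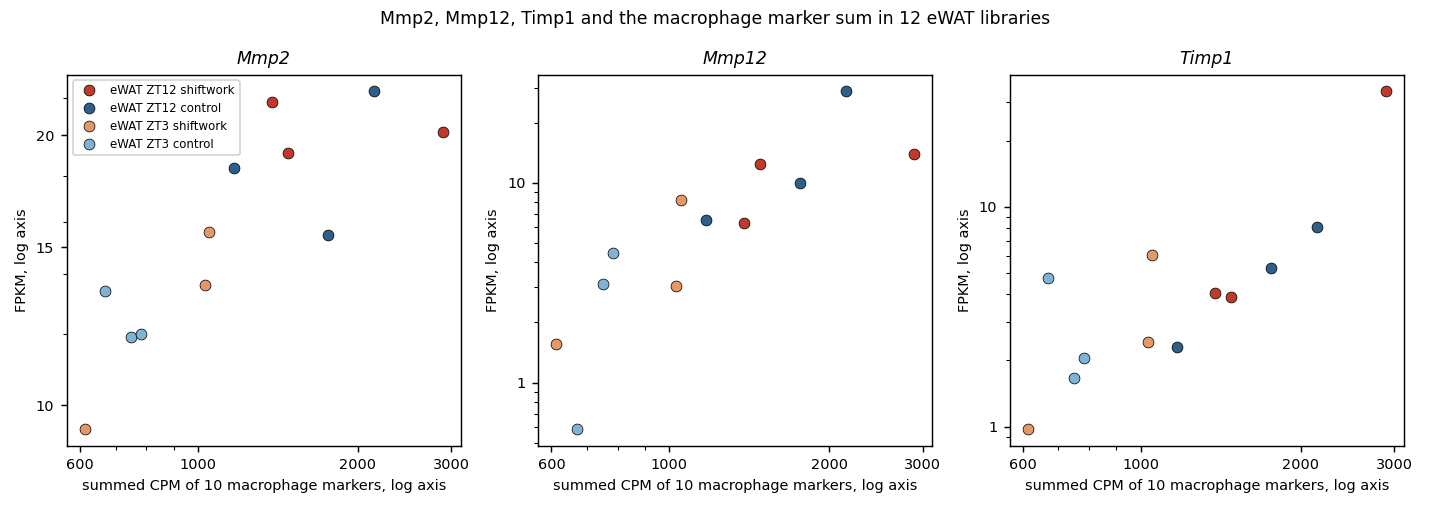
Mmp2, Mmp12 and Timp1 (FPKM, log axis) against the summed CPM of 10 macrophage markers (log axis), 1 point per eWAT library, coloured by group. The ZT12 libraries have marker sums of 1170 CPM or more and the ZT3 libraries 1050 CPM or less, and libraries with higher sums tend to have higher levels of all 3 genes.

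Timp2, which inhibits Mmp2 and also takes part in its activation by Mmp14 at the cell surface, had 133, 134 and 110 FPKM in ZT12 shiftwork libraries, against 89.8, 58.4 and 110 FPKM in ZT3 shiftwork libraries. The lowest ZT12 and the highest ZT3 value are equal to 3 digits on this scale. The difference under shiftwork was 0.57 ± 0.23 (adjusted p = 0.284, edgeR), and 0.51 ± 0.26 (adjusted p = 0.509) without ZT12 shiftwork replicate 2, the library with intestine transcripts. In controls Timp2 had 86.7, 122 and 77.6 FPKM at ZT12, against 80.3, 69.9 and 96.2 FPKM at ZT3, with overlapping groups and a difference of 0.23 ± 0.23 (adjusted p = 0.616). The gene Cep295nl lies on the same strand inside the span of Timp2, and it stood at 155 CPM in ZT3 shiftwork replicate 3 (at most 3.22 CPM elsewhere in eWAT), where Timp2 had 543 CPM. How reads in the shared span were divided is not given in the sources used here.

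Mmp14, the membrane-bound enzyme that activates pro-Mmp2, had 18.9, 15 and 16.3 FPKM in ZT12 shiftwork libraries and 13.3, 17.3 and 15.1 FPKM in ZT12 control libraries. At ZT3 it had 9.82, 10.5 and 18.8 FPKM in shiftwork libraries and 16, 12.0 and 15.9 FPKM in control libraries. The groups overlapped, and the difference over both schedules was 0.24 ± 0.13 (adjusted p = 0.281, edgeR). Its high ZT3 value again came from shiftwork replicate 3. Without that library the difference was 0.36 ± 0.09 (adjusted p = 0.0315), and without the 3 libraries with vas deferens or spermatid transcripts it was 0.42 ± 0.11 (adjusted p = 0.0413).

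Mmp3, which can activate other pro-metalloproteinases, was low throughout eWAT. It had 2.09, 1.91 and 1.37 FPKM in ZT12 shiftwork libraries, all above the 1.18, 0.193 and 0.421 FPKM of ZT3 shiftwork libraries, with a difference of 1.55 ± 0.77 (adjusted p = 0.337, edgeR). It was 2.59 ± 0.80 (adjusted p = 0.144) without ZT3 shiftwork replicate 1 and 1.14 ± 0.79 (adjusted p = 0.431) without ZT3 shiftwork replicate 2. In controls the groups overlapped, at 1.38, 1.90 and 0.455 FPKM at ZT12, against 0.348, 0.9 and 1.56 FPKM at ZT3, with a difference of 0.42 ± 0.75 (adjusted p = 0.820).

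Counted without overlap of the groups on TMM-scaled CPM, 3 of the 9 genes were higher at ZT12 under shiftwork (Mmp2, Mmp3 and Timp2), against 9.05% of all genes tested. In controls 2 of the 9 were (Mmp2 and Mmp12), against 19.3%, and over both schedules 1 was (Mmp2), against 3.61%. No gene of the 9 was lower at ZT12 without overlap, against 7.59% of all genes under shiftwork, 13.6% in controls and 1.07% over both schedules. In controls edgeR called 3.69% of all genes and none of the 9, with 2 at an unadjusted p under 0.05 (22.4% of all genes) and 2 called by DESeq2 (14.3% of all genes), Mmp2 and Mmp12 in both counts. Under shiftwork it called 0% of all genes, with 3 of the 9 at an unadjusted p under 0.05, against 16.3% of all genes, and 1 called by DESeq2 (1.76% of all genes). Over both schedules DESeq2 called 2 of the 9 (14.9% of all genes). The log2 fold change was positive for 7 of 9 under shiftwork (46.4% of all genes), with a median of 0.57, against -0.03 over all genes. It was positive for 8 of 9 in controls (48.7% of all genes; median 0.35, against -0.01) and for 8 of 9 over both schedules (44.5%; median 0.40, against -0.04). The comparisons over both schedules share libraries with those within a schedule, so these counts are not separate observations. The 9 genes were also chosen with earlier results of these data known, which limits what counts against all genes can show.

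**Figure D4:**
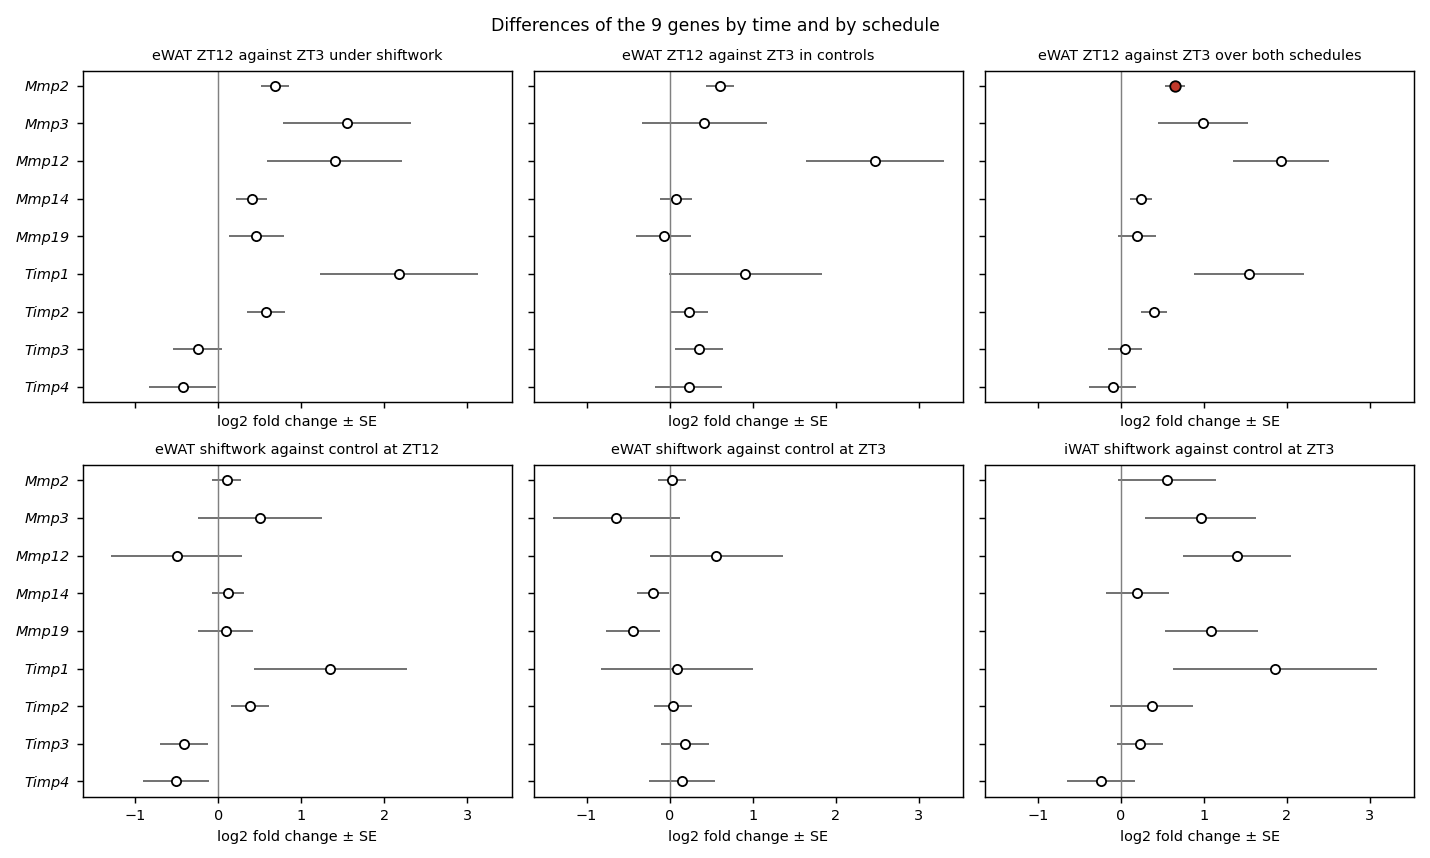
Log2 fold changes (points) with SE (bars) of the 9 genes in 6 comparisons, with the filled red point for an adjusted p under 0.05 and open points for the rest. The 1 filled point is Mmp2 at ZT12 against ZT3 over both schedules, at 0.65, and the bars of Mmp3, Mmp12 and Timp1 are the widest in each eWAT panel.

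Mmp19, Timp3 and Timp4 were not called by time. Mmp19, an enzyme that also cuts basement membrane proteins, ranged from 11.8 to 32.8 FPKM over all eWAT libraries, and its difference over both schedules was 0.19 ± 0.23 (adjusted p = 0.613, edgeR), or -0.21 ± 0.13 without the 3 libraries named above. Timp3, the inhibitor that binds to the matrix, and Timp4, an inhibitor abundant in adipose tissue, differed by 0.05 ± 0.20 (adjusted p = 0.899) and -0.10 ± 0.28 (adjusted p = 0.846). Without the 3 libraries Timp4 stood at -0.46 ± 0.15 over both schedules (adjusted p = 0.0792) and -0.84 ± 0.18 under shiftwork (adjusted p = 0.0714), against -0.43 ± 0.40 under shiftwork with all libraries. Timp4 had its lowest value, 42.4 FPKM, in ZT3 shiftwork replicate 3, where the sum of 8 adipocyte markers was also lowest, at 10900 CPM, against 14400 to 27600 CPM in the other eWAT libraries. Across the 12 eWAT libraries logCPM of Timp4 went with that sum at r = 0.81, and at r = 0.66 over the 9 left without the 3 libraries.

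Shiftwork was then set against control in eWAT. At ZT12 no gene of the 9 was called, with 0% of all genes called, 0 of the 9 at an unadjusted p under 0.05 (2.34% of all genes) and 0 of the 9 called by DESeq2 (0.0462%). The log2 fold change was positive for 6 of 9, against 49% of all genes, and 0 of 9 were higher without overlap (5.91% of all genes). At ZT3 no gene of the 9 was called either, again with 0% of all genes called by edgeR, 0 of the 9 at an unadjusted p under 0.05 (18.8% of all genes) and 0 of the 9 called by DESeq2 (4.13% of all genes). It was positive for 6 of 9 (56.9% of all genes), and 0 of 9 were higher (7.64%) or lower (4.33%) without overlap. The smallest adjusted p at ZT3 was 0.503, for Mmp19 (-0.44 ± 0.33, edgeR). Over both times the count was likewise 0 of 9 in edgeR (0% of all genes) and in DESeq2 (0.277%), with 0 of the 9 at an unadjusted p under 0.05 (8.57%), 4 of 9 positive (56%) and 0 of 9 higher (0.0727%) or lower (0.112%) without overlap. The interaction with time was called for 0 of 9 by edgeR (0% of all genes) and DESeq2 (1.24%), with 0 at an unadjusted p under 0.05 (10.1%), 6 of 9 positive (42.9%) and a smallest adjusted p of 0.582, for Timp3 (-0.60 ± 0.40, or -1.03 ± 0.31 with adjusted p = 0.235 without the 3 libraries).

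At ZT12 the estimates for the inhibitors differed in direction, with none of them called. Timp3 had 80.9, 108 and 83.2 FPKM in shiftwork libraries, against 117, 109 and 130 FPKM in controls. The shiftwork libraries were all below the controls, by little for replicate 2, and the log2 fold change was -0.41 ± 0.29 (adjusted p = 1.0, edgeR). It was the 1 gene of the 9 that was lower without overlap, against 6.55% of all genes tested. Timp4 had 70.4, 91.0 and 58.4 FPKM in shiftwork libraries, against 108, 86.1 and 115 FPKM in controls, with 1 shiftwork library inside the control range and a difference of -0.51 ± 0.40 (adjusted p = 1.0). Timp2 went the other way, with 133, 134 and 110 FPKM in shiftwork libraries, against 86.7, 122 and 77.6 FPKM in controls, overlapping groups and a difference of 0.38 ± 0.23 (adjusted p = 1.0).

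At ZT3 the metalloproteinases overlapped between schedules. Mmp19 had 21.2, 23.7 and 11.8 FPKM in shiftwork libraries, against 17.8, 32.8 and 25.7 FPKM in controls. Mmp2 differed by 0.03 ± 0.17, Mmp14 by -0.20 ± 0.19, Mmp12 by 0.56 ± 0.80 and Mmp3 by -0.64 ± 0.76 on the log2 scale. All 3 libraries with vas deferens or spermatid transcripts are in this comparison, and without them Mmp12 turned to -1.02 ± 0.86 and Mmp2 to -0.14 ± 0.26. Timp3 was at 0.19 ± 0.29 with them and 0.63 ± 0.26 (adjusted p = 0.338) without them. Mmp3 was at -1.68 ± 0.77 (adjusted p = 0.253) without ZT3 shiftwork replicate 1. For the low genes Mmp3, Mmp12 and Timp1 the SE was 0.75 or more in each eWAT comparison between schedules at 1 time, and a difference of 1.35 in Timp1 at ZT12 was not called.

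Timp1, the secreted inhibitor that many cell types induce during inflammation and tissue repair, was set by single libraries. It had 33.5, 3.9 and 4.04 FPKM in ZT12 shiftwork libraries, against 5.29, 8.12 and 2.31 FPKM in ZT12 controls. In ZT3 eWAT it had 2.43, 0.979 and 6.05 FPKM in shiftwork libraries and 1.67, 2.06 and 4.76 FPKM in controls. ZT12 shiftwork replicate 1 was 4.12 times the next highest library, and the other 2 shiftwork libraries lay within the control range. The difference between schedules at ZT12 was 1.35 ± 0.92 (adjusted p = 1.0, edgeR) and -0.41 without that replicate. At ZT12 against ZT3 under shiftwork it was 2.18 ± 0.95 (adjusted p = 0.3), 0.42 without that replicate and 2.91 ± 1.15 (adjusted p = 0.194) without the 3 libraries. Over both schedules it was 1.54 ± 0.66 (adjusted p = 0.179), and 0.67 without that replicate. The same library had the highest macrophage sum of the eWAT libraries, 2890 CPM, and the highest mesothelium sum, 449 CPM over 9 markers, against 42 to 394 CPM in the others. The part of these cells in the Timp1 level was not tested.

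In iWAT, too, Timp1 stood out in 1 shiftwork library. It had 5.21, 3.46 and 98.6 RPKM in shiftwork libraries, against 3.93, 2.93 and 4.34 RPKM in controls, so that shiftwork replicate 3 was 18.9 times the next highest. The log2 fold change was 1.86 ± 1.23 (adjusted p = 0.694, limma on log2 of the value plus 1, n = 3 per group) and 0.36 without that replicate. The same replicate was highest for Mmp3, with 35.2, 22.6 and 109 RPKM in shiftwork libraries, against 21.8, 17.2 and 42.6 RPKM in controls, and for Mmp19, with 26.1, 22 and 82.4 RPKM, against 16, 15.4 and 27.2 RPKM in controls. The difference of Mmp3 was 0.96 ± 0.67 (adjusted p = 0.702) and 0.32 without it, and that of Mmp19 was 1.09 ± 0.56 (adjusted p = 0.688) and 0.50 without it. This library also had the highest macrophage sum in iWAT, 2910 CPM, against 1030 and 1870 CPM in the other shiftwork libraries and 1410 to 1960 CPM in controls, while its mesothelium sum was 8.98 CPM.

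The labels of eWAT ZT12 shiftwork replicate 1 and iWAT shiftwork replicate 3 carry the same number, 45, and these are the 2 libraries with the highest Timp1 of their depots. The numbers 14, 15 and 16 are likewise shared by the control libraries of eWAT at ZT12 and iWAT at ZT3. The labels do not say what the numbers mean, and they give the 2 depots different times.

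The other genes in iWAT overlapped between schedules. Mmp12 had 11.2, 6.27 and 5.22 RPKM in shiftwork libraries, against 2.60, 1.51 and 6.88 RPKM in controls, with 1 control library inside the shiftwork range and a difference of 1.40 ± 0.65 (adjusted p = 0.688, limma), or 2.08 ± 0.43 (adjusted p = 0.0915) without control replicate 3. Mmp2 had 96.0, 58.8 and 134 RPKM in shiftwork libraries, against 59.1, 38.6 and 140 RPKM in controls (0.56 ± 0.59, adjusted p = 0.777, or 1.16 ± 0.41 with adjusted p = 0.239 without control replicate 3). Control replicate 3 had a lymphocyte marker sum of 15.3 CPM, against 991 and 1600 CPM in control replicates 1 and 2. Leaving it out thus keeps only the controls with high lymphocyte sums. Timp2 spanned 97.9 to 253 RPKM under shiftwork, against 114 to 227 RPKM in controls (0.37 ± 0.50, adjusted p = 0.828). Mmp14, Timp3 and Timp4 differed by 0.20 ± 0.38, 0.23 ± 0.28 and -0.24 ± 0.41. Timp4 stood at 10.7 RPKM in shiftwork replicate 1, against 30.5 to 33.6 RPKM in the other shiftwork libraries and 26 to 30.7 RPKM in controls, and replicate 1 is the library with 53500 CPM of skeletal muscle markers.

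In iWAT the log2 fold change was positive for 8 of 9 genes (51.8% of all genes; median 0.56, against 0.02 over all genes), none of the 9 was higher (7.34%) or lower (5.59%) without overlap, and 0 of 9 were called, with 0% of all genes called, 0 of 9 at an unadjusted p under 0.05 (6.68% of all genes) and 0 of 9 called by edgeR on recovered reads (0% of all genes). The authors' deposited table gives Mmp19 a log2 fold change of 1.10 with p = 0.0365 and adjusted p = 0.536, and lists Timp1 at 2.30 with no p.

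Among themselves, the logCPM of several of the 9 genes moved together over the 12 eWAT libraries. Mmp2 went with Timp2 at r = 0.81, Mmp3 with Timp2 at r = 0.80, and Timp1 with Timp2 at r = 0.80, and over the 9 libraries left without the 3 with other transcripts these were 0.83, 0.89 and 0.78. Timp4 went against Mmp14 at r = -0.72 (-0.82 over 9) and with Timp3 at r = 0.52 (0.63 over 9). These correlations share libraries and scaling and carry no test.

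For each gene, the genes whose logCPM was most like it over the 12 eWAT libraries were named by r. They are the highest r out of all genes compared, so high values follow from the choice and carry no test. Over the 9 libraries left without the 3 with other transcripts, r ran from 0.80 (Timp3 and Cobll1) to 0.98 (Mmp12 and Atp6v0d2). The values of Timp1 include ZT12 shiftwork replicate 1, where its FPKM was 4.12 times the next highest library. Mmp12 was followed most closely by Atp6v0d2, a subunit of the vacuolar proton pump found in osteoclasts and macrophages (r = 0.98), Tbxas1, the thromboxane synthase (r = 0.95), and Ctsk, the collagen-cutting cathepsin K (r = 0.94). Timp1 was followed by Pclaf (r = 0.95) and the cyclin Ccna2 (r = 0.95), both genes of dividing cells, and by Sdf2l1 of the endoplasmic reticulum (r = 0.93). Mmp2 was followed by the collagen VI chain Col6a6 (r = 0.94), the cytokine receptor subunit Csf2rb2 (r = 0.93) and the PI3-kinase subunit Pik3r5 (r = 0.93). Timp2 was closest to the collagen hydroxylase P3h3 (r = 0.95), Bst1 (r = 0.93) and Olfml2b (r = 0.90), and Mmp3 to Ecm1 (r = 0.89), Man2a1 (r = 0.88) and Bst1 (r = 0.87). For Mmp14 the closest were the immune cell genes Pou2f2 (r = 0.90), Ptpn22 (r = 0.90) and Plcg2 (r = 0.88). Timp4 was closest to Scn7a (r = 0.94), Zfp106 (r = 0.94) and Pcdh19 (r = 0.93), Timp3 to Tnks2 (r = 0.85), Cobll1 (r = 0.84) and Tgfbr3 (r = 0.84), and Mmp19 to Ppp2r5b, Mvk and Zhx1 (r = 0.97 each).

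Of the other metalloproteinases, 18 were in both tables and 11 were tested in eWAT. In controls Mmp9, the gelatinase of neutrophils and macrophages, fell at ZT12, to 5.88 ± 2.20 TMM-scaled CPM, against 22.7 ± 11.9 at ZT3 (SD, n = 3 each, log2 fold change -1.95 ± 0.44, adjusted p = 0.0428, edgeR). Its highest libraries, at 8.36 and 5.96 FPKM, were ZT3 control replicates 1 and 3, and without the 3 libraries with vas deferens or spermatid transcripts the difference was -0.76 (adjusted p = 0.219). Mmp9 was the 1 gene of the 11 called in controls, against 3.69% of all genes, or 0.766% counting only those lower at ZT12. No other gene of this list was called in any comparison. Over both schedules 4.94% of all genes were called by time, and 0% in each of the remaining comparisons. Mmp28 was the most abundant of the list by median (16.3 FPKM in eWAT and 19.5 RPKM in iWAT). Mmp7, an enzyme of glandular epithelium, was at 78.1 FPKM in ZT3 shiftwork replicate 3 and at most 2.38 FPKM in the other eWAT libraries.

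Of 15 tested genes that regulate metalloproteinases or procollagen processing, 3 rose at ZT12 in controls, against 2.93% of all genes. The log2 fold change was positive for 8 of the 15, with a median of 0.07. The CPM values given next are TMM-scaled, as mean ± SD. Thbs2, a matrix protein that clears Mmp2 from the cell surface, was at 89.0 ± 8.46 CPM at ZT12, against 24.2 ± 9.65 CPM at ZT3 (1.87 ± 0.31, adjusted p = 0.0195, edgeR). Pcolce2, an enhancer of procollagen cleavage, was at 99.6 ± 11.5 CPM, against 26.4 ± 19.0 CPM at ZT3 (1.92 ± 0.41, adjusted p = 0.0381). Sparc, a collagen-binding protein, was at 6260 ± 118 CPM, against 3070 ± 842 CPM at ZT3 (1.03 ± 0.23, adjusted p = 0.0404), and without the 3 libraries named above it was 0.60 with adjusted p = 0.0707, while Pcolce2 was 1.0 (adjusted p = 0.0428) and Thbs2 was 1.63 (adjusted p = 0.0248). Each of these 3 calls, and that of Mmp9, was lost when some single libraries were left out, with adjusted p of up to 0.107 for Thbs2, 0.154 for Pcolce2, 0.182 for Sparc and 0.176 for Mmp9.

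Over both schedules 5 of the 15 regulators rose, against 4.09% of all genes, while 7 of the 15 were positive and the list's median was -0.03. Those called included, with the smallest p, Sparc (0.79 ± 0.16, adjusted p = 0.0248), Pcolce (0.73 ± 0.17, adjusted p = 0.0408) and Pcolce2 (1.21 ± 0.29, adjusted p = 0.0430). Of 8 ADAM sheddases, membrane proteases that TIMPs also inhibit, 1 rose over both schedules, against the same 4.09% of all genes. It was Adam19 (0.53 ± 0.12, adjusted p = 0.0379, and 0.0671 without the 3 libraries). These 4 calls were lost too when some single libraries were left out, with adjusted p of up to 0.0798 for Sparc, 0.107 for Pcolce, 0.114 for Pcolce2 and 0.118 for Adam19. None of the 11 tested genes of the plasminogen and activation list and none of the 19 matrix substrates was called in any comparison. Of all genes, 3.69% were called by time in controls, 4.94% over both schedules and 0% in each other comparison. For shiftwork at ZT3 in eWAT, 7 of the 11 and 0 of the 19 had an unadjusted p under 0.05 (edgeR). That comparison holds the 3 libraries with vas deferens or spermatid transcripts, and 18.8% of all genes passed. By time over both schedules 1 of the 11 and 11 of the 19 did, against 25.5% of all genes. The log2 fold change at ZT12 against ZT3 was positive for 8 of 11 activation genes and 19 of 19 substrates under shiftwork (medians 0.42 and 0.45), against 46.4% of all genes and a median of -0.03. In controls it was positive for 7 of 11 and 17 of 19 (medians 0.11 and 0.31), against 48.7% of all genes and a median of -0.01. In iWAT shiftwork against control it was positive for 9 of 11 activation genes (median 0.37) and 19 of 19 substrates (median 0.84), against 51.8% of all genes and a median of 0.02, with 2 and 10 genes at an unadjusted p under 0.05, against 6.68% of all genes, and no gene called by limma.

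In the eWAT annotation (build GRCm38/mm10 per the submitters' processing notes) Mmp2 spans chr8:92827297-92853421 and Mmp14 spans chr14:54431598-54442456, both on the plus strand. Mmp12 (chr9:7344397-7369499) and Mmp3 (chr9:7445822-7455974) follow each other on the plus strand of chromosome 9. Timp1 spans chrX:20870166-20874737 and Timp3 chr10:86300412-86349505 on the plus strand, while Timp2 (chr11:118301061-118355411) and Timp4 (chr6:115245616-115251849) are on the minus strand. The spans of several of the 9 genes overlap other genes in the eWAT annotation, and the strand used for counting is not given in the sources used here. Timp1 lies inside Syn1, Timp3 inside Syn3 and Timp4 inside Syn2, each on the opposite strand, and Syn1 ran from 0.880 to 3.76 CPM, Syn3 from 1.62 to 5.38 CPM and Syn2 from 5.89 to 23.9 CPM. For Timp1, at 1.16 to 40.5 CPM, its neighbour is thus of the same order in its lower libraries. Mmp19 overlaps Tmem198b (12.5 to 19.3 CPM), and Mmp12 overlaps Mmp1b, which had 0 reads in all eWAT libraries.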

How the data were processed

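Single reads of 51 cycles were sequenced, per the labels' protocols. Tools listed in the submitters' processing notes, with no role given, are edgeR, limma, STAR, DESeq2 and HTSeq, and the builds are GRCm38 and mm10. For eWAT the authors deposited whole-number counts and log2 FPKM values, which the counts show to be log2(FPKM + 0.1). FPKM was taken as 2 to the power of the value minus 0.1, and as 0 where a gene had no reads. For iWAT the authors deposited a table named as read counts that holds normalized signal, RPKM per the file headers, and for each gene a log2 fold change with its p-value from their own comparison. Dividing the signal by the step of each library gave whole reads for 100% of 310956 values (tolerance 1e-06). Because of this unit, limma replaced the edgeR test in iWAT.

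For eWAT, edgeR 4.0.16 (R 4.3.3) was run on the counts (robust quasi-likelihood, TMM, filterByExpr with minimum count 10 and minimum total 15, all 12 libraries in 4 groups, 15141 genes). The SE was obtained by dividing the absolute log2 fold change by the root of its F statistic. iWAT signal was tested with limma 3.58.1 (trend, robust) on log2(value + 1), for 16387 identifiers with a value of 10 or more in 3 libraries. DESeq2 1.42.0 and other settings were alternatives, whose effects stand at the end. A floor of 3 reads is 0.0415 to 0.147 CPM across eWAT libraries, and for iWAT 0.0539 to 0.105 CPM, for counting error only. Fits were tested on simulated data with 200 changed genes. These genes had many reads, a fixed spread and changes larger than most differences given here. The simulation therefore does not show whether differences of the sizes given here would be found.

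The 9 genes, the lists and the comparisons were chosen with earlier results of these data known, and the comparisons over both schedules and over both times were added later. All 9 genes are named in every comparison, of the lists up to 3 called genes with the smallest p, of similar genes the 3 with the highest r among tested genes with average logCPM of at least 1, and all overlapping genes with spans up to 5 Mb. Mmp7 and Mmp28, and the genes of the libraries numbered 45, were named after their values were seen. At ZT12 in eWAT, deviations of libraries with the same replicate number correlated weakly across schedules, at 0.310, 0.132 and 0.203. In the other comparisons at least 1 pair was at 0.1 or less, and the labels do not say what the numbers mark.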

Additional observations from a re-analysis of the deposited data

How the results depend on the processing

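Of 1269 values of the 9 genes recomputed under other settings, 1191 kept their direction and their side of the threshold, 5 lost a call, 8 gained one and 65 changed sign. The number of the 9 called at ZT12 against ZT3 in controls was 0, 2 with DESeq2 and 0 to 1 with 1 library left out. Under shiftwork it was 0, and 1 with DESeq2. Over both schedules it was 1, 2 with DESeq2, 2 without the 3 libraries with vas deferens or spermatid transcripts, and 0 to 3 with 1 library left out. The replicate block changed no call of the 9 genes, and Mmp2 over both schedules had an adjusted p of 0.0439 with it (edgeR). Counts over all genes moved further. In controls 559 were called by time, 2168 with DESeq2, 320 with no filter, 298 with the replicate block and 1 to 2744 with 1 library left out. Over both schedules it was 748, 2252 with DESeq2, 462 with the block, 1791 without the 3 libraries and 138 to 1656 with 1 library left out. The counts of 0 became, with DESeq2, 626 for shiftwork at ZT3, 7 at ZT12, 266 for time under shiftwork, 187 for the interaction and 42 for shiftwork over both times. Without the 3 libraries they were 9 at ZT3, 75 for time under shiftwork, 7 for the interaction and 4 over both times. With 1 library left out they reached 403 at ZT3, 186 for the interaction, 88 over both times and 360 in iWAT, from 0 in each. Sign changes in log2 fold change were, for shiftwork at ZT3, Timp1 at -0.03 with the block and -0.05 on log2 FPKM, and, without the 3 libraries, Mmp2 at -0.14, Mmp12 at -1.02 and Timp1 at -0.34. Without the same 3, Timp4 by time in controls was -0.08, the Mmp12 interaction 0.52 and Mmp19 by time over both schedules -0.21. For shiftwork over both times Mmp2 was -0.02, Mmp3 0.02, Mmp12 -0.76 and Timp3 0.11 without the 3, and Mmp3 was 0.01 on log2 FPKM. With 1 library left out, shiftwork at ZT3 ran from -0.06 to 0.18 for Mmp2, -0.22 to 1.18 for Mmp12, -0.65 to 0.66 for Timp1, -0.10 to 0.23 for Timp2, -0.11 to 0.46 for Timp3 and -0.14 to 0.53 for Timp4. At ZT12 it ran from -0.02 to 0.24 for Mmp2, -0.86 to 0.36 for Mmp12, -0.04 to 0.23 for Mmp19 and -0.41 to 1.81 for Timp1. Time in controls ran from -0.02 to 0.94 for Mmp3, -0.01 to 0.15 for Mmp14 and -0.31 to 0.22 for Mmp19, and time under shiftwork from -0.49 to 0.04 for Timp3. The interaction ran from -0.08 to 0.21 for Mmp2 and -0.49 to 2.01 for Timp1. Time over both schedules ran from -0.08 to 0.19 for Timp3 and -0.31 to 0.03 for Timp4. Shiftwork over both times ran from -0.59 to 0.20 for Mmp3, -0.36 to 0.46 for Mmp12, -0.17 to 0.03 for Mmp14, -0.16 to 1.01 for Timp1, -0.26 to 0.03 for Timp3 and -0.32 to 0.01 for Timp4. In iWAT it ran from -0.02 to 0.46 for Timp3 and -0.50 to 0.23 for Timp4. The cause of these changes was not tested.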

Other observations

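Genes other than Timp1 were also far above their depot in the libraries numbered 45. Of 14509 genes set side by side, 40 were at least 2-fold above all other eWAT libraries in eWAT ZT12 shiftwork replicate 1 and 351 were at least 2-fold above all other iWAT libraries in iWAT shiftwork replicate 3. In both, 10 genes were, which is 25.0% of the eWAT list, against 351 of all 14509 genes in the iWAT list. It is 2.85% of the iWAT list, against 40 of all 14509 genes in the eWAT list. The 10 genes include Timp1, the gene by which these libraries were singled out. The same count was not made for other pairs of libraries, so whether this overlap is unusual for a pair was not tested. The 10 genes were chosen after their values were seen and carry no test. Timp1 was 3.98 times the next library in eWAT (TMM-scaled CPM) and 17.3 times in iWAT (normalized signal). Tnfrsf11b, the decoy receptor osteoprotegerin, was 5.17 times the next library in eWAT and 6.92 times in iWAT. Gjb5, a connexin, was 2.12 times in eWAT and 12.0 times in iWAT, and Ccr1, a chemokine receptor, 2.44 times and 4.47 times. The others were Apol9b, Retnlg, Ptgis, Msln, Bend6 and S100a6.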
